A study of Drosophila melanogaster with 48 samples.

Results

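The small heat shock proteins of Drosophila melanogaster were described here in brain RNA from a fly model of mucopolysaccharidosis IIIB. The members were taken by gene symbol: Hsp22, Hsp23, Hsp26, Hsp27, Hsp67Ba, Hsp67Bc and l(2)efl, which are 7 of the 17490 gene identifiers in the count table. Small heat shock proteins are chaperones built around an alpha-crystallin domain. They assemble into oligomers that hold unfolding proteins in a soluble state without using ATP, until Hsp70 and its co-chaperones refold them or they are degraded. In flies the heat shock factor Hsf induces most of them under heat, ecdysone induces several during development, and their levels have long been studied in ageing flies.

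Mucopolysaccharidosis IIIB is a lysosomal storage disease caused by loss of the enzyme NAGLU, which takes part in the breakdown of heparan sulfate. The 48 libraries were made from brains, 20 per library, after depletion of ribosomal RNA. They formed 16 groups of 3: 4 genotypes, females and males, at week 0 and at week 3 of age. The genotypes were NAGLU KO, NAGLU W422X, NAGLU Y160C and WG2, hereafter KO, W422X, Y160C and WG2. By the usual notation W422X is a premature stop and Y160C an amino acid substitution. WG2 carries no NAGLU change in the labels and served as the reference. The labels do not call it the parent of the mutant lines, and each allele is named as 1 line, so a property of a line cannot be told apart from that of its allele. They also do not say that replicates came from separate crosses, so the p-values measure the spread between such pools of brains, which may be technical.

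Library totals ran from 8690199 to 55801160 counts with a median of 19159445, and no pair of replicates was identical. The fly Naglu transcript lay between 1.40 and 3.71 CPM, counts scaled to library size, in the KO libraries and between 4.55 and 9.13 CPM in W422X. It lay between 17.5 and 25.8 CPM in Y160C and between 17.9 and 29.5 CPM in WG2. A set of 1961 genes with a median under 0.1 CPM summed to between 640.3 and 2000 CPM in 9 libraries and to at most 422.4 CPM in the other 39. All 9 were week 3 libraries, 6 from females and 3 from males: 4 KO, 3 Y160C, 1 W422X and 1 WG2. They are called the high-background libraries, a class set at 600 CPM after the values were seen. The 6 neuron markers were present in every library.

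The genes sit in 2 places. Coordinates refer to the BDGP6.54 assembly, looked up with the FlyBase number of each gene. Hsp67Bc (FBgn0001229, 3L:9371511-9372497, minus strand), Hsp22 (FBgn0001223, 3L:9372931-9374964, plus), Hsp26 (FBgn0001225, 3L:9376418-9377427, minus), Hsp67Ba (FBgn0001227, 3L:9377802-9379534, minus), Hsp23 (FBgn0001224, 3L:9381882-9382765, plus) and Hsp27 (FBgn0001226, 3L:9384063-9385694, plus) lie within 14.2 kb on chromosome arm 3L. The remaining member, l(2)efl (FBgn0011296, 2R:23684651-23685543, minus), lies on another chromosome. The map of the locus shows which exons are shared with other annotated genes.

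**Figure D1:**
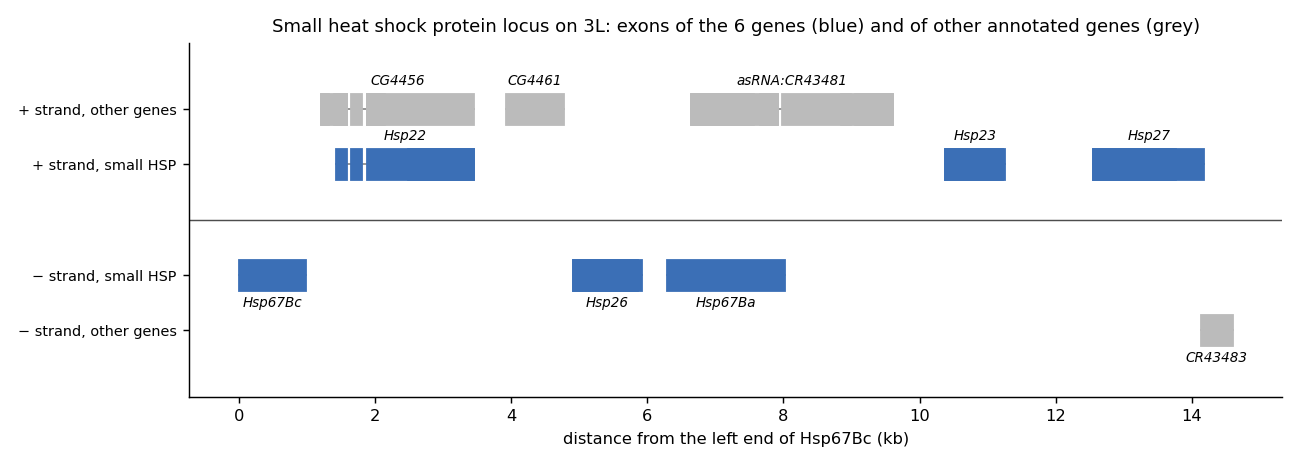
Map of the small heat shock protein locus on 3L, with distance from the left end of Hsp67Bc in kb on the horizontal axis and strand on the vertical axis; blue boxes are exons of the 6 members, grey boxes exons of the other annotated genes in the interval. Hsp22 lies wholly under CG4456 on the same strand, and most of Hsp67Ba lies under asRNA:CR43481 on the opposite strand.

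That sharing decided what could be measured. Among genes whose exons are all covered by exons of another gene on the same strand, 299 of 299 had 0 counts in every library, and among those covered from the opposite strand 119 of 121 did. Reads that touch more than 1 gene were therefore not counted, and strand was not used. Hsp22, whose protein is the mitochondrial member of the family, has all 1900 of its exon bases inside CG4456 (also named Hsp67Bb). It is listed at 0 in all 48 libraries, so its expression was not measured here. CG4456 itself reached at most 0.312 CPM, but most of its exon bases are shared with Hsp22, so this value does not give its expression either. Hsp67Ba shares 1316 of its 1733 exon bases (75.9%) with asRNA:CR43481, so its counts come from at most 417 bases. These lie in separate stretches, and reads that run from them into the shared bases were not counted. The shared part was 75 bases (10.1%) of l(2)efl, under St3, and 49 bases (3.0%) of Hsp27, under CR43483; Hsp23, Hsp26 and Hsp67Bc share none.

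The 6 measurable genes were all expressed at a modest level, with between 20 and 1033 counts per library. For these genes CPM are scaled by the TMM factors of edgeR. Errors of CPM are SDs over libraries and those of log2 differences are SEs, unless named otherwise. Per kb of exon not shared with other genes, Hsp23 was at 19.3 ± 3.35, Hsp67Ba at 17.7 ± 4.84 and Hsp67Bc at 11.3 ± 4.52 CPM per kb (SD, n = 48). Hsp26 was at 6.61 ± 1.89, l(2)efl at 4.06 ± 1.52 and Hsp27 at 2.97 ± 1.07 CPM per kb (SD, n = 48). On the length in the deposited table Hsp67Ba would stand at 4.25 CPM per kb, below Hsp26, so its place in this order depends on the shared bases. Since reads that reach into shared bases were lost, its 17.7 CPM per kb may be too low. Its order against Hsp23 is therefore not settled.

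The 16 group means spread most for Hsp67Bc, by 3.85 times between the highest and the lowest, and least for Hsp23, by 1.44 times. The spread was 2.72 times for Hsp27, 2.37 times for Hsp67Ba, 2.20 times for l(2)efl and 2.09 times for Hsp26. When the groups were ordered by mean, neighbours differed by less than the larger of their SDs in all 15 pairs for each gene but Hsp67Bc. For Hsp67Bc 2 of 15 neighbouring pairs differed by more: W422X males at week 0 stood above the next group, KO males at week 0, and WG2 males at week 3 stood above Y160C males at week 3.

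**Figure D2:**
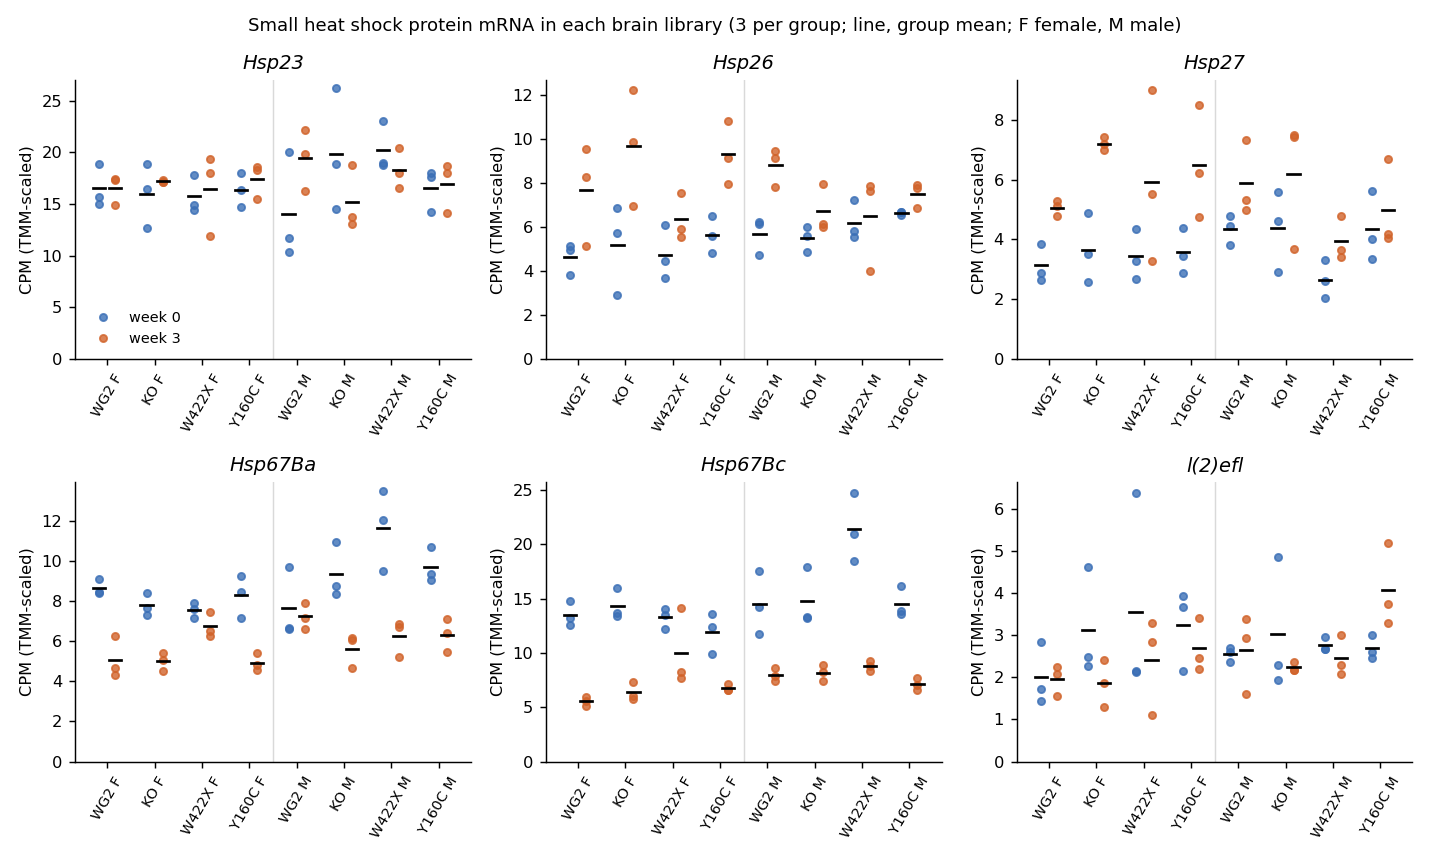
TMM-scaled CPM of each measurable gene (vertical axis, from 0) in each of the 48 libraries, by genotype and sex (horizontal axis), with week 0 in blue, week 3 in orange and a line at each mean of 3. Hsp67Bc and Hsp67Ba lie lower at week 3 and Hsp26 and Hsp27 higher, while the points of Hsp23 and l(2)efl mix.

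Age separated the family into genes that were lower, higher and not called at week 3. Of the 6 genes tested, 4 were called between the ages at an adjusted p under 0.05 (edgeR quasi-likelihood test, Benjamini-Hochberg over 15807 genes): Hsp67Bc and Hsp67Ba fell, and Hsp27 and Hsp26 rose. Age was called for 44.5% of all genes tested, 26.4% higher and 18.1% lower, a share to read the 4 of 6 against. The median log2 difference was -0.08 over the 6 genes and 0.16 over all genes.

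Hsp67Bc, a cytosolic member that works with the co-chaperone Starvin and is linked to autophagy, showed the largest age difference of the 6. At week 0 its 24 libraries ran from 9.89 through a median of 13.6 to 24.7 CPM, and at week 3 from 5.14 through 7.40 to 14.1 CPM. The ages overlap only through a single week 3 library, replicate 3 of W422X females at 14.1 CPM; the next highest week 3 value was 9.23 CPM. The fitted level fell by 0.97 ± 0.06 on the log2 scale (SE; adjusted p = 1.38e-15, edgeR), a level 1.95-fold lower. The mean fell in all 8 combinations of genotype and sex, as it did for 11.9% of all genes. In 7 of the 8 every week 3 library lay below every week 0 library, against 12.2% of all gene and combination pairs.

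The same direction held in each genotype on its own. In WG2 the 6 week 0 libraries ran from 11.8 through a median of 13.7 to 17.6 CPM and the 6 at week 3 from 5.14 through 6.64 to 8.60 CPM. The log2 difference of Hsp67Bc between ages was -1.08 ± 0.12 in WG2, -1.01 ± 0.12 in KO, -0.85 ± 0.12 in W422X and -0.93 ± 0.12 in Y160C (SE). All 4 were called, with adjusted p-values from 9.40e-08 to 5.52e-06 (edgeR). None of the 3 tests of a different age effect in a mutant and in WG2 was called for Hsp67Bc, nor for any other member (0.215%, 0 and 0.0190% of all genes in KO, W422X and Y160C). For Hsp67Bc these differences were 0.06 ± 0.17 for KO, 0.23 ± 0.16 for W422X and 0.15 ± 0.17 for Y160C (SE, log2). Over all genes the test in KO called 34, but 0 with limma voom and 86 with DESeq2.

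Hsp67Ba, another alpha-crystallin gene of the locus, on the same strand as Hsp67Bc, also fell. Its week 0 libraries ran from 6.62 through a median of 8.45 to 13.5 CPM and its week 3 libraries from 4.31 through 6.11 to 7.89 CPM. The upper part of the week 3 range therefore overlaps the lower part of the week 0 range. The log2 level fell by 0.58 ± 0.06 (SE, adjusted p = 1.53e-10, edgeR). The mean fell in all 8 combinations of genotype and sex, as for 11.9% of all genes. In 6 of them no library overlapped, against 12.2% of all gene and combination pairs. WG2 males were the weakest case, at 7.67 ± 1.77 CPM at week 0 and 7.22 ± 0.641 CPM at week 3 (SD, n = 3). By genotype the log2 difference was -0.43 in WG2, -0.68 in KO, -0.53 in W422X and -0.68 in Y160C, each with an SE of 0.11 and each called. The call in WG2 was lost without replicate 3 of WG2 females at week 0 (adjusted p = 0.0546) and without replicate 2 of WG2 males at week 0 (adjusted p = 0.0922, edgeR). It was also lost in 4 of 9 other settings, with Hsp67Ba down to -0.25 and the adjusted p up to 0.148. In KO the Hsp67Ba call was lost without the 9 high-background libraries (-0.53), a removal that left 1 KO library of each sex at week 3.

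Hsp26, a cytosolic member, was higher at week 3. It ran from 2.92 through a median of 5.67 to 7.25 CPM in the week 0 libraries and from 3.99 through 7.85 to 12.2 CPM in the week 3 libraries. The ranges overlap, with the week 3 median above the highest week 0 value. The log2 level rose by 0.49 ± 0.09 (SE; adjusted p = 2.22e-05, edgeR), which is 1.41-fold, and the mean was higher at week 3 in all 8 combinations of genotype and sex, as for 7.72% of all genes. In 6 of the 8 no library overlapped, against 12.6% of all gene and combination pairs. Some of these separations were near ties. In WG2 females the highest week 0 library and the lowest week 3 library both rounded to 5.16 CPM. In KO males they stood at 6.01 and 6.03 CPM. KO females gave the highest week 3 mean, with libraries at 12.2, 6.97 and 9.86 CPM in the place of 6.86, 5.74 and 2.92 CPM at week 0. Replicates 1 and 3 of that week 3 group are high-background libraries.

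Hsp27, which is found largely in the nucleus, rose by a similar amount. Its libraries ran from 2.03 through a median of 3.47 to 5.63 CPM at week 0 and from 3.29 through 5.30 to 8.99 CPM at week 3. The ranges overlap between 3.29 and 5.63 CPM. The log2 difference was 0.63 ± 0.11 (SE, adjusted p = 1.48e-05, edgeR), which is 1.54-fold. The mean was higher at week 3 in all 8 combinations, as for 7.72% of all genes. In 5 of them no library overlapped, against 12.6% of all gene and combination pairs. KO females at week 3 were at 7.41, 7.20 and 6.99 CPM, above all 3 of their week 0 libraries at 3.50, 4.88 and 2.59 CPM.

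**Figure D3:**
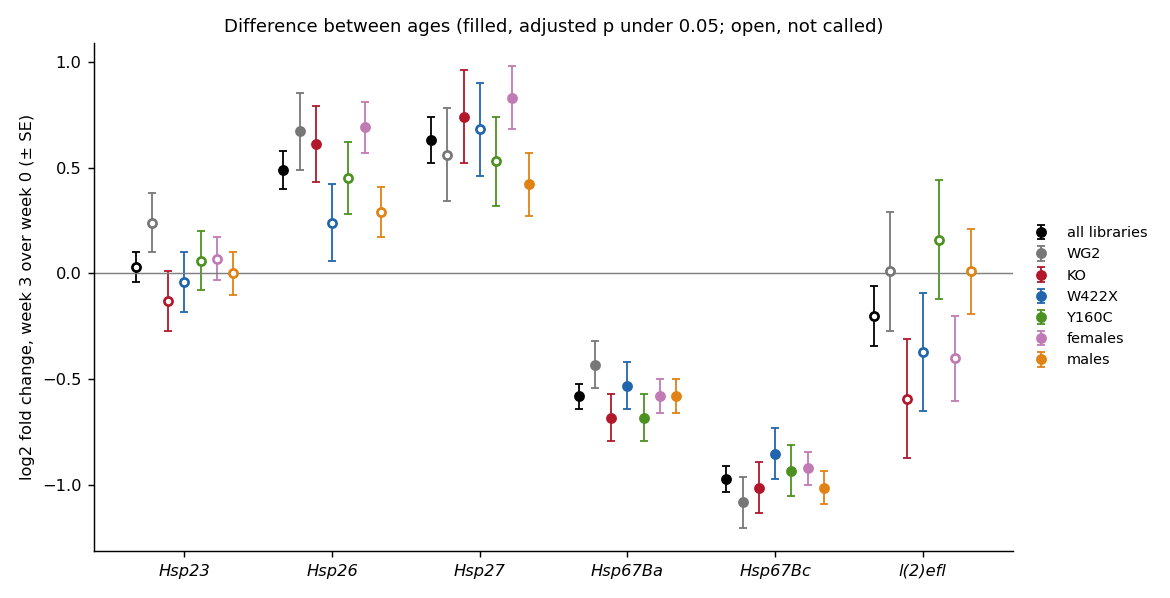
Log2 fold change of week 3 over week 0 for each measurable gene (vertical axis), over all libraries, within each genotype and within each sex; bars are SEs, filled points were called at an adjusted p under 0.05 and open points were not. Hsp67Ba and Hsp67Bc lie below 0 in every fit, Hsp26 and Hsp27 above 0, and Hsp23 and l(2)efl on both sides of it.

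Within single genotypes the rises were called less uniformly. For Hsp26 the log2 difference was 0.67 ± 0.18 in WG2 (adjusted p = 0.0111) and 0.61 ± 0.18 in KO (SE; adjusted p = 0.0139, edgeR). Hsp26 was not called in W422X, at 0.24 ± 0.18, or in Y160C, at 0.45 ± 0.17 (SE). Over 9 other settings it was called in 0 for W422X and in 2 for Y160C. For Hsp27 KO was called, at 0.74 ± 0.22 (adjusted p = 0.0148, edgeR). The other values of Hsp27 were 0.56 ± 0.22 in WG2, 0.68 ± 0.22 in W422X and 0.53 ± 0.21 in Y160C (SE), of about the same size. W422X sat at the threshold (adjusted p = 0.0513, edgeR): Hsp27 was called there in 3 of 9 other settings and on leaving out any of 12 single libraries. In WG2 it was called in 2 of 9 settings, without the 9 high-background libraries and with the background level as a covariate. Over the 6 genes, 3 were called in WG2, 4 in KO, 2 in W422X and 2 in Y160C, against 8.72%, 17.9%, 7.24% and 7.55% of all genes. Taken by genotype and sex, 2 genes were called in WG2 females (6.24% of all genes), 1 in WG2 males (2.37%), 4 in KO females (16.7%) and 2 in KO males (1.49%). The counts were 0 in W422X females (0.361%), 2 in W422X males (5.19%), 2 in Y160C females (0.936%) and 2 in Y160C males (1.76%). Hsp26 and Hsp27 were called in KO females alone among these 8, and the difference between them and the others was not tested.

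The calls of Hsp26 and Hsp27 within a genotype rest on few libraries. In KO the count of 4 genes became 2 without replicate 3 of KO females at week 0 and without replicate 2 of KO males at week 3, since Hsp26 and Hsp27 both lost their calls. Hsp26 in KO also lost its call without replicate 1 of KO females at week 3 (adjusted p = 0.0645), and Hsp27 without replicate 2 of that group (0.0522) or replicate 1 of KO males at week 0 (0.0599, edgeR). In WG2, Hsp26 was not called without replicate 1 of WG2 females (0.0820) or replicate 2 of WG2 males (0.0503) at week 3.

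Hsp27 also moved with the background level. At week 3 it stood at 7.20 ± 1.15 CPM in the 9 high-background libraries and at 4.81 ± 1.22 CPM in the other 15, with 3.69 ± 0.983 CPM in the 24 libraries of week 0 (SD). Over the deviations of the 48 libraries from their group means, r between Hsp27 and the summed rare genes was 0.80; it was 0.30 for Hsp26, -0.42 for Hsp23, -0.35 for Hsp67Ba, -0.21 for Hsp67Bc and -0.03 for l(2)efl. These points share library and depth, and the values are a description. Without the 9 libraries the age difference of Hsp27 was 0.41 (adjusted p = 0.00603, edgeR) and that of Hsp26 0.42 (0.00119), where the median of all genes was -0.07; Hsp67Ba and Hsp67Bc were at -0.51 and -0.92 and still called. Within KO the same removal left only 1 library of each sex at week 3. There Hsp26 was at 0.34 and Hsp27 at 0.41, and both calls were lost. With the background level as a covariate Hsp27 in KO was at 0.30 (adjusted p = 0.194) and Hsp26 at 0.47 (0.0787, edgeR). In Y160C Hsp27 went from 0.53 to 0.16 without the 9 libraries, uncalled in both.

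**Figure D4:**
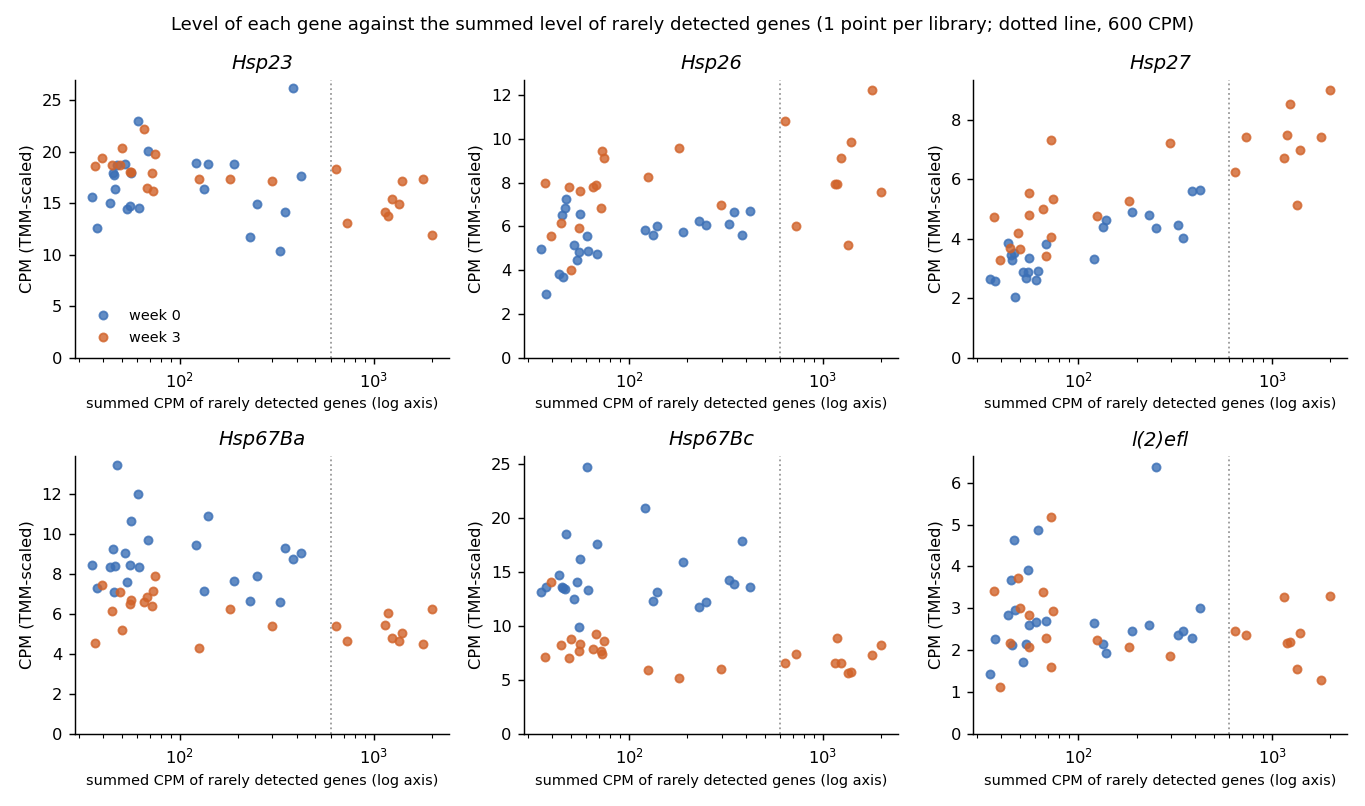
TMM-scaled CPM of each measurable gene (vertical axis, from 0) against the summed CPM of the 1961 rarely detected genes (horizontal log axis), 1 point per library, week 0 in blue and week 3 in orange, with a dotted line at 600 CPM. Hsp27 climbs along the horizontal axis within both ages, and Hsp67Bc is lower at week 3 over the overlapping range except in 1 library at 14.1 CPM.

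Hsp23, a cytosolic member with the highest value of the 6 per kb of unshared exon, was not called between the ages. It ran from 10.3 through a median of 17 to 26.2 CPM at week 0 and from 12 through 17.4 to 22.2 CPM at week 3. The week 3 range lies inside the week 0 range. The log2 difference was 0.03 with a 95% interval from -0.11 to 0.18 (adjusted p = 0.734, edgeR), and the libraries of the 2 ages overlapped in all 8 combinations of genotype and sex. Its deviations from group means ran with the summed level of 6 glial markers (r = 0.66 over 48 libraries), as did those of Hsp67Bc (r = 0.59), and the part of glial RNA in these values was not tested.

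l(2)efl, the member outside the locus, named for the lethality of its loss, was the least abundant in CPM and varied most between replicates. It ran from 1.44 through a median of 2.61 to 6.37 CPM at week 0 and from 1.11 through 2.33 to 5.19 CPM at week 3, so the ages overlap almost wholly. The log2 difference was -0.20 with a 95% interval from -0.48 to 0.09 (adjusted p = 0.234, edgeR). Its counts ran from 20 to 176 per library, and single libraries stood well above their replicates, such as 6.37 CPM beside 2.13 and 2.15 CPM in W422X females at week 0. Its deviations ran with the summed level of 14 muscle markers (r = 0.51 over 48 libraries), whose part was not tested either.

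The markers of the brain's own cells also differed between the ages. All 6 neuron markers fell at week 3, with a median log2 difference of -0.43, and their summed level went from between 10861 and 14731 CPM at week 0 to between 6991 and 11150 CPM at week 3. Of the 6 glial markers 3 fell (Eaat1, Gs2 and alrm) and 1 rose (wrapper). In bulk RNA, fewer cells of a type and less RNA per cell cannot be told apart, and the part of these shifts in the age differences of Hsp67Bc, Hsp67Ba, Hsp26 and Hsp27 was not tested. Over the 48 deviations from group means, the neuron sum had r = -0.62 with Hsp27, 0.43 with Hsp23, 0.34 with Hsp67Ba, 0.25 with Hsp67Bc and -0.25 with Hsp26.

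Markers of other tissues shifted too. Of 9 fat body markers 7 rose and none fell, with a median log2 difference of 0.66, and their sum ran from 529.2 to 5184 CPM at week 0 and from 828.5 to 3912 CPM at week 3. Of 14 muscle markers 5 rose and 1 fell, of 10 photoreceptor markers 3 rose and 2 fell, and of 6 haemocyte markers 3 rose and 1 fell. Hsp26 had r = 0.37 with the fat body sum and 0.21 with the muscle sum, Hsp27 -0.04 and 0.26, and Hsp23 0.33 and -0.45, as descriptions over 48 libraries that share depth. Their part in the age differences was not tested.

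The other heat shock genes were read against the 44.5% of all genes called with age, 26.4% higher and 18.1% lower. Of the 7 inducible Hsp70 genes, which take over substrates from the small heat shock proteins, 6 rose and none fell, with a median log2 difference of 0.50. The clearest was Hsp68 at 1.12 ± 0.07 (SE; adjusted p = 4.98e-15, edgeR). The Hsp70Aa, Hsp70Ab and Hsp70B copies are nearly identical, so the division of reads between them is uncertain. Their summed level with Hsp68 lay between 15.12 and 32.27 CPM at week 0 and between 27.29 and 46.10 CPM at week 3, ranges that overlap little.

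Of the 4 other alpha-crystallin genes, CG4461, CG7409, CG13133 and CG14207, none was called between the ages, and their median log2 difference was 0.07. Of 15 constitutive chaperones tested 3 rose and 6 fell. Hsp83, the fly Hsp90, rose by 0.24 ± 0.07, and the mitochondrial chaperones Hsc70-5, Hsp60A and Trap1 were at -0.27 ± 0.06, -0.17 ± 0.06 and -0.26 ± 0.05 (SE, log2). Of 6 regulators and co-chaperones tested 2 rose, CG7130 by 0.89 ± 0.19 and Cdc37, a partner of Hsp90, by 0.13 ± 0.05. Hsf itself stood at 0.03 ± 0.05 and stv, which encodes Starvin, at -0.00 ± 0.05 (SE, log2), and neither was called.

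Sex made a smaller difference, and it fell on the same pair of genes that were lower at week 3. Hsp67Ba and Hsp67Bc were higher in males, and the other 4 were not called; sex was called for 10.1% of all genes, 6.04% higher in males. At week 0 Hsp67Bc ran from 9.89 through a median of 13.5 to 16 CPM in 12 female libraries and from 11.8 through 15.2 to 24.7 CPM in 12 male libraries. At week 3 Hsp67Bc ran from 5.14 through 6.57 to 14.1 CPM in females and from 6.57 through 8.06 to 9.23 CPM in males. The sexes overlap at both ages, and the male median was the higher at each.

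The log2 difference between males and females was 0.24 ± 0.06 for Hsp67Bc (SE; adjusted p = 0.00497) and 0.24 ± 0.06 for Hsp67Ba (adjusted p = 0.00359, edgeR), each 1.18-fold. The male mean was the higher in 7 of 8 combinations of genotype and age for Hsp67Bc and in 6 of 8 for Hsp67Ba. It was also the higher in 6 of 8 for Hsp26, which was not called. The share of all genes with such counts was not computed. Hsp67Ba ran from 7.13 through 8.14 to 9.26 CPM in females and from 6.62 through 9.41 to 13.5 CPM in males at week 0. Within an age, 1 member was called at week 0 (Hsp67Bc, 4.53% of all genes) and 1 at week 3 (Hsp67Ba, 23.4%). The values of the other 4 genes over both ages lay between -0.04 and 0.12 on the log2 scale. Of the 6 glial markers 5 were also higher in males, with a median log2 difference of 0.33. Of 6 haemocyte markers 5 were lower in males (median -1.07), of 9 fat body markers 4 were lower and 1 higher (median -1.10), and of 10 photoreceptor markers 3 were higher (median 0.48). The part of these shifts in the sex differences was not tested.

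Among the related genes, CG14207 was higher in males by 0.17 ± 0.05 (SE; adjusted p = 0.0243, edgeR). Of the 15 constitutive chaperones 4 were higher in males and none lower, where 6.04% of all genes were higher and 4.10% lower, among them Hsc70-3, the chaperone of the endoplasmic reticulum, by 0.30 ± 0.06 (SE, log2). None of the 7 inducible Hsp70 genes was called between the sexes.

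Whether age acted alike in the sexes was tested directly, and no member was called (edgeR), against 23.4% of all genes. That share rests on few libraries: it was 3693 genes in all, and 11 without replicates 1 and 3 of KO females at week 3. Age was called for 4 members in females (62.4% of all genes) and for 3 in males (18.6%). Hsp26 came nearest. Its age difference was 0.69 ± 0.12 in females and 0.29 ± 0.12 in males, and the difference between these was -0.40 ± 0.18 (SE; adjusted p = 0.0756, edgeR). Females went from a median of 5.05 CPM at week 0 to 8.12 CPM at week 3, and males from 6.07 to 7.81 CPM. Hsp27 showed the same size of difference, -0.40 ± 0.22 (SE; adjusted p = 0.134), and Hsp67Ba stood at 0.00 ± 0.10. Of the 9 high-background libraries 6 are female, and the value of Hsp27 became 0.06 with the background level as a covariate. Over single libraries left out, the value of Hsp26 ran from -0.59 to -0.33, with adjusted p-values from 0.0264 to 0.170 (edgeR). Hsp26 was called in 11 of these 48 cases. The same removals moved the count over all genes between 31 and 6470, and the adjusted p depends on all genes. In 9 other settings Hsp26 lay between -0.56 and -0.25 and was called in 1.

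Few differences from WG2 were called. Against WG2, 0 of 6 genes were called in KO, 1 in W422X and 0 in Y160C (edgeR), with 0.747%, 0.373% and 0.310% of all genes called. For the genes that were not called, the log2 differences from WG2 lay between -0.23 and 0.46. In KO the 95% intervals ran from -0.16 to 0.25 for Hsp23, from -0.24 to 0.26 for Hsp26 and from -0.08 to 0.25 for Hsp67Bc. They were wider for Hsp27, from -0.11 to 0.51, and for l(2)efl, from -0.26 to 0.54.

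**Figure D5:**
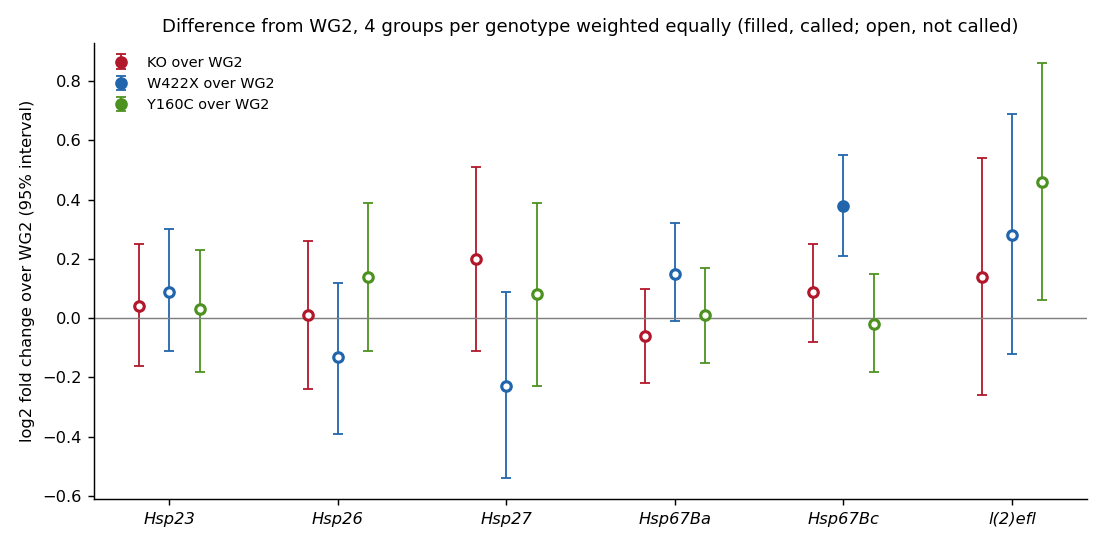
Log2 fold change of KO, W422X and Y160C over WG2 for each measurable gene (vertical axis), with the 4 groups of a genotype weighted equally; bars are 95% intervals, the filled point was called at an adjusted p under 0.05 and open points were not. Hsp67Bc in W422X, at 0.38, is the only called value, and l(2)efl has the widest intervals.

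The called gene was Hsp67Bc in W422X. Its 12 W422X libraries ran from 7.70 through a median of 12.9 to 24.7 CPM and the 12 WG2 libraries from 5.14 through 10.2 to 17.6 CPM. The log2 difference was 0.38 ± 0.08 (SE; adjusted p = 0.0159, edgeR), which is 1.30-fold. Taken by sex and age, the difference was uneven.

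In males at week 0 the W422X libraries were at 24.7, 18.5 and 20.9 CPM and the WG2 libraries at 14.3, 17.6 and 11.8 CPM, a ratio of means of 1.47. In females at week 3 they were at 8.21, 7.70 and 14.1 CPM against 5.14, 5.61 and 5.90 CPM, a ratio of 1.80. In both of these pairs every W422X library lay above every WG2 library. How often other genes separate in this way between the 2 genotypes was not counted. In females at week 0 W422X was at 13.5, 14.1 and 12.2 CPM and WG2 at 12.5, 14.8 and 13.2 CPM, a ratio of 0.984. In males at week 3 W422X was at 9.23, 8.75 and 8.29 CPM and WG2 at 8.60, 7.38 and 7.88 CPM, a ratio of 1.10, and in these 2 pairs the libraries overlapped. The tests of whether the W422X difference depends on age (0.23 ± 0.16) or on sex (-0.06 ± 0.16, SE, log2) were not called.

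This call is fragile. It was lost without W422X female replicate 3 (0.28, adjusted p = 0.0892), W422X male replicate 1 (0.0614), WG2 female replicate 1 (0.0604), WG2 male replicate 2 (0.0632) or WG2 male replicate 3 (0.0507), all from week 3 (edgeR). It was also lost with plain library totals (0.0718), with limma voom (0.0699) and when only the 2 genotypes were fitted (0.0681). Hsp67Bc was also called between the 2 point alleles, W422X over Y160C, at 0.39 ± 0.08 (SE; adjusted p = 0.00796), where 0.443% of all genes were called; these comparisons share the W422X libraries. That call was lost in 3 of 10 other settings: plain library totals (0.31, adjusted p = 0.143), without the 9 high-background libraries (0.0699) and only the 2 genotypes fitted (0.0506). KO over W422X was -0.29 ± 0.08 (adjusted p = 0.102, edgeR) and not called, with 0 of 6 genes against 0.747% of all genes. Without replicate 1 of W422X females at week 3, a high-background library, Hsp27, Hsp67Ba and Hsp67Bc were all called between KO and W422X (adjusted p = 0.0265, 0.0428 and 0.0222), as were 4460 genes in place of 118. KO and Y160C differed in 0 of 6 genes, against 0.797%.

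Hsp27 and l(2)efl held the next largest values by genotype. Hsp27 in W422X stood at -0.23 and in KO at 0.20 on the log2 scale, neither called, and KO over W422X was 0.43 ± 0.15 (adjusted p = 0.290, edgeR). Its 12 KO libraries ran from 2.59 through 5.24 to 7.48 CPM and its 12 W422X libraries from 2.03 through 3.36 to 8.99 CPM, and 4 of the KO libraries but 1 of the W422X libraries were of high background. l(2)efl stood at 0.46 ± 0.20 in Y160C (adjusted p = 0.606, edgeR), with 12 libraries from 2.14 through 3.14 to 5.19 CPM against 1.44 through 2.31 to 3.39 CPM in WG2; the ranges overlap over most of their length.

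No sex difference in the response to an allele was called for any member (0.152%, 0 and 0.00633% of all genes in KO, W422X and Y160C). The largest was that of Hsp27 in W422X, -0.83 ± 0.31 (SE; adjusted p = 0.954, edgeR): W422X females averaged 5.93 ± 2.87 CPM and W422X males 3.96 ± 0.742 CPM at week 3 (SD, n = 3). The female libraries were at 8.99, 5.52 and 3.29 CPM, the first of them of high background. Over all 7 interaction tests and 6 genes, 2 of 42 values had an unadjusted p under 0.05 and 0 were called. Over all genes the test of KO by sex called 24, but 0 with limma voom and 63 with DESeq2.

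Of the other heat shock genes, 2 of 7 inducible Hsp70 genes were higher in KO than in WG2, Hsp70Bbb by 1.29 ± 0.14 and Hsp70Ba by 1.25 ± 0.17 (SE; adjusted p = 2.98e-08 and 1.60e-05, edgeR). The other 5 were not called and the median over the 7 was -0.02; these are near-identical copies, and how reads were divided among them was not tested. No gene of the 4 lists of chaperones and relatives was called in W422X or in Y160C.

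The 16 group means span both ages, so r between members over them includes the age differences given above. Hsp67Ba and Hsp67Bc had r = 0.93 over the 16 group means of log2 CPM, and Hsp26 and Hsp27 had r = 0.80, while Hsp27 and Hsp67Bc had r = -0.81. Over the deviations of the 48 libraries from their group means the same pairs had r = 0.19, 0.34 and -0.23, far smaller than over the group means. Hsp23 and Hsp67Bc were the reverse, with r = 0.03 over group means and 0.54 over deviations. l(2)efl had no r above 0.35 with another member in either.

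Over the 16 group means, 11219 genes with a mean of at least 1 CPM were ranked by their likeness to each member. Hsp67Bc was most like subdued (r = 0.987), SerT (0.981) and CG6329 (0.979). Hsp67Ba was most like ND-PDSW (0.955), FBgn0015541 (0.954) and Neb-cGP (0.950), and Hsp27 most like Kebab (0.939), Coop (0.937) and CG6071 (0.925). For Hsp26 the nearest were ana3 (0.892), betaTub85D (0.880) and CG5800 (0.873). Hsp23 had no close match, with ImpL2 at 0.753 and CG13775 and CG2006 at 0.732, nor had l(2)efl, with CG13896 at 0.776, CG9676 at 0.771 and FBgn0027341 at 0.734. The 16 points share the contrast of age, and such values describe the order of the groups.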

How the data were processed

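RNA was measured in 48 brain libraries. The authors deposited raw counts per gene, 1 column per library, with gene lengths; Subread is named without a version in the submitters' processing notes, and neither aligner settings nor a build is given in the sources used here. Symbols and positions came from the BDGP6.54 annotation, which matched 17288 identifiers; 17045 of their deposited lengths equal its exon lengths. The members and lists were chosen with earlier results of these data known. The 6 members with counts passed the filter; Hsp22 did not.

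Counts were fitted with edgeR 4.0.16 in R 4.3.3: filterByExpr (minimum count 10, total 15) kept 15807 genes and dropped 1683, with TMM scaling, 16 group means, robust quasi-likelihood tests on 32 residual degrees of freedom and Benjamini-Hochberg adjustment over all genes tested. Comparisons weight groups equally, and SE is the log2 fold change over the root of F. Likeness used log2 CPM with a prior count of 2; for each member the 3 nearest genes are named. The fit was tested on simulated data. Alternatives were limma 3.58.1 voom, DESeq2 1.42.0, RLE factors, no filter, a replicate block and libraries left out; those on background and on plain library totals were chosen after seeing the data. Depth limits precision to the counts given, and intervals cover the spread between libraries.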

Additional observations from a re-analysis of the deposited data

How the results depend on the processing

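Over 3442 recomputed log2 values of single genes, 3263 kept direction and side of the threshold, and 0 called values changed sign. The age calls of Hsp26, Hsp27, Hsp67Ba and Hsp67Bc over all libraries held in all 9 alternatives, from 0.42 to 0.65, 0.41 to 0.80, -0.60 to -0.42 and -0.98 to -0.81. With plain library totals, which moved the median of all genes from 0.16 to 0.32, Hsp23 was also called (0.18). The 2 sex calls held in all 9. The replicate numbers of the sample titles did not pair libraries: 133 of 360 same-numbered pairs had r over 0.1, with a median of -0.03. Of 48 libraries, 14 were closest to their own number. The replicate block, built on the same numbers, changed no count of called members. Over all genes it gave 6908 in place of 7038 for age and 2716 in place of 3693 for age by sex. For some libraries the submitters' column names carry other replicate numbers, and pairing by those was not tested.

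Counts of called members moved by more than 1.5 times as follows. In KO between ages, 4 became 2 without both KO female week 3 replicates 1 and 3, 2 with the background covariate and 1 without the 9 libraries; single libraries left out gave 2 to 4. W422X over WG2, 1, became 0 with plain totals, limma voom or only the genotypes compared, and 0 to 1 over single libraries. W422X over Y160C, 1, became 0 with plain totals, only the genotypes compared, or without the 9. Age by sex, 0, became 1 with DESeq2 and 0 to 2 over single libraries; KO over W422X, 0, became 0 to 3, with 3 (Hsp27, Hsp67Ba and Hsp67Bc) only without W422X female week 3 replicate 1. The causes were not tested, and without the 9 libraries 1 KO library of each sex was left at week 3. The ranges over all genes given next leave out the removals of single libraries. Those removals gave 31 to 6470 genes for age by sex, 1829 to 5080 for age in KO and 770 to 2193 for age in WG2. They gave 898 to 2689 for age in W422X, 614 to 3070 for age in Y160C and 48 to 73 for W422X over WG2. Counts over all genes also moved: age by sex from 3693 to between 11 and 4115 and age in KO from 2830 to between 593 and 4041. Age over all libraries went from 7038 to between 4729 and 9861, age in WG2 from 1379 to between 991 and 3091, in W422X from 1145 to between 858 and 2647, in Y160C from 1194 to between 961 and 2450, and sex from 1602 to between 1060 and 2939. KO over WG2 went from 118 to between 29 and 259, W422X over WG2 from 59 to between 53 and 132, and Y160C over WG2 from 49 to between 46 and 93.

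Reversed values, none of them called in the reported fit, were these. Age in WG2: l(2)efl, -0.0035 (replicate block) and -0.0073 (limma voom). Age in KO: Hsp23, 0.05 (without the 9), 0.007 (covariate) and 0.03 (plain totals). Age in W422X: Hsp23, 0.04 (without the 9) and 0.05 (plain totals). KO over WG2: Hsp26, -0.0085 (no filter), -0.11 (without the 2 KO libraries), -0.20 (without the 9), -0.06 (covariate) and -0.0027 (limma voom), and Hsp27, -0.02 (covariate). Y160C over WG2: Hsp27, -0.11 (without the 9) and -0.04 (covariate); Hsp67Ba, -0.01 (no filter, without the 2 KO libraries, only the genotypes compared) and -0.02 (without the 9); Hsp67Bc, 0.0048 (without the 9) and 0.03 (plain totals). Age by sex: Hsp27, 0.06 (covariate). Over single libraries left out the ranges were, for Hsp23 with age, -0.08 to 0.12 in all, -0.28 to 0.09 in KO, -0.24 to 0.05 in W422X and -0.08 to 0.17 in Y160C. For l(2)efl with age they were -0.17 to 0.18 in WG2, -0.62 to 0.03 in W422X and -0.05 to 0.28 in Y160C, and for Hsp27 by sex -0.12 to 0.01. Over WG2 they were, in KO, -0.05 to 0.12 for Hsp26 and -0.09 to 0.04 for Hsp67Ba, and in Y160C -0.0062 to 0.12 for Hsp23, -0.02 to 0.06 for Hsp67Ba and -0.05 to 0.02 for Hsp67Bc.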

Other observations

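Among the related alpha-crystallin genes, CG14207 was the most abundant, at 54.2 ± 6.98 CPM over the 48 libraries (SD). CG13133 was at 4.78 ± 2.10 CPM, CG7409 at 2.88 ± 1.16 CPM and CG4461 at 0.484 ± 0.478 CPM (SD, n = 48). CG13133, chosen after its values were seen, stood out in a single library: replicate 2 of WG2 females at week 3 was at 18.1 CPM, beside 4.69 and 5.37 CPM in its replicates, and no other library passed 6.78 CPM. That library is also the 1 WG2 library of high background. CG13133 was called lower in KO than in WG2 at week 3 (-0.79 ± 0.21, SE; adjusted p = 0.0441, edgeR, where 1.29% of all genes were called), a comparison that includes it. The antisense gene asRNA:CR43481, which covers most of Hsp67Ba, was at 1.32 ± 1.39 CPM. It ran from 1.52 to 7.12 CPM in the 9 high-background libraries and from 0.07 to 2.61 CPM in the other 39. The value of 7.12 CPM was that of the W422X female library of high background. In that library Hsp67Ba was at 6.25 CPM, beside 6.52 and 7.46 CPM in its replicates.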
